A study of Homo sapiens with 16 samples.

Results

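The MiT/TFE family has 4 genes in humans, MITF, TFEB, TFE3 and TFEC, and binding at and around them was mapped by chromatin immunoprecipitation and sequencing in the human melanoma line A375. A peak was taken when its summit lay in the RefSeq gene body or within 50 kb of it on GRCh38. The 4 genes, of 19974 protein-coding genes in all, held 206 of the 399028 peaks of the 10 deposited lists, 135 of them inside the gene bodies. Cells of the TGFB1 group received 10 ng/mL of the cytokine TGFB1 over 2 h. Cells of the vehicle group received only the solvent, 4 mM HCl that contained BSA at 1 mg/mL, for the same time, and both groups had first been starved for 2 h. Each group had 1 library for each of 5 antibodies: Smad2/3 (the factors that TGF-beta receptors activate), H3K27ac (the acetylated histone of active promoters and enhancers), MITF, ATF3 and JUNB (the last pair from the AP-1 and ATF families). All libraries come from this single cell line, and 6 input libraries were not analysed here. With 1 library for each antibody and treatment no difference below could be tested, and every statement compares these libraries.

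MiT/TFE proteins are basic helix-loop-helix leucine zipper factors that pair with each other, but not with the related MYC, MAX or USF proteins, and read the E-box CACGTG and the M-box TCATGTG. MITF directs the development and survival of melanocytes and the making of pigment, and most melanomas still use it. TFEB and TFE3 are made in nearly all tissues, are held in the cytoplasm by mTORC1 in fed cells, and switch on lysosome and autophagy genes in the nucleus. TFEC is mostly made in macrophages and their relatives. The MITF gene has several alternative promoters, of which the one nearest its 3′ end serves melanocytes and carries a cAMP response element, TGACGTCA.

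The promoters are shown first, since every MITF peak of the 4 windows lay on one. The windows run from 250 bases before to 50 bases after a start, were taken from RefSeq (GRCh38.p14), and are written along the gene's own strand. Capitals mark exact matches on either strand to the E-box (CACGTG), the M-box (TCATGTG), AP-1 (TGANTCA), the cAMP response element or CRE (TGACGTCA), and the SMAD letters GTCTAGAC and CAGAC. None of these motifs contains another. All 4 members were in the table, with 3 starts each for MITF and TFEB, 1 for TFE3 and 2 for TFEC. The first pair of sequences holds a MITF peak in both treatments, at the first start of MITF (plus strand, chr3:69739214-69739513) and of TFEB (minus strand, chr6:41735559-41735858).
MITF start 1: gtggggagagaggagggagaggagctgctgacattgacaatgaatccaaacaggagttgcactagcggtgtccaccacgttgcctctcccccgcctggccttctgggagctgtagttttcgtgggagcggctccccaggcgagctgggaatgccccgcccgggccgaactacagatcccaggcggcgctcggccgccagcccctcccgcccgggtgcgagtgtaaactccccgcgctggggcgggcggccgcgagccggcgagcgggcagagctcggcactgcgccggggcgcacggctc
TFEB start 1: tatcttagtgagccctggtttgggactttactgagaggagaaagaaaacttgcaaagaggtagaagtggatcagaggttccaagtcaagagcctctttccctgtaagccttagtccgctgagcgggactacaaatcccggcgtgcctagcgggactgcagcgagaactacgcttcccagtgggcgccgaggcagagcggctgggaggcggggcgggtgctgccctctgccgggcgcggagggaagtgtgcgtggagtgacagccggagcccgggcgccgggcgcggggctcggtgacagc
The third start of MITF (plus strand, chr3:69936342-69936641) is shown for its CRE, and the start of TFE3 (minus strand, chrX:49043308-49043607) for its AP-1 letters under a JUNB peak.
MITF start 3: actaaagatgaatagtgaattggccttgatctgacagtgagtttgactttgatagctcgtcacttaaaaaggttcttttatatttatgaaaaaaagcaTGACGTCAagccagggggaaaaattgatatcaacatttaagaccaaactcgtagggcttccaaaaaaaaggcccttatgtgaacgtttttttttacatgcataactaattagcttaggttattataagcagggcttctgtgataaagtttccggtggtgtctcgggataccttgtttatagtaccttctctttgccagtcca
TFE3 start: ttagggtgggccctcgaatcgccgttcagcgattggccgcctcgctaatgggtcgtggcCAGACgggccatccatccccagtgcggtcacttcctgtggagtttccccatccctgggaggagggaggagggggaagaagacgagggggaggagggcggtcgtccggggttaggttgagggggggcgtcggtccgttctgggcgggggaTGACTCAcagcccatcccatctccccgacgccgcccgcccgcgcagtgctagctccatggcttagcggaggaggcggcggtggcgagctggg
The last pair belongs to neighbours of TFE3 whose promoters hold the MITF peak and the strongest JUNB peak of that window, PRAF2 (minus strand, chrX:49073953-49074252) and the second start of WDR45 (minus strand, chrX:49079838-49080137).
PRAF2 start: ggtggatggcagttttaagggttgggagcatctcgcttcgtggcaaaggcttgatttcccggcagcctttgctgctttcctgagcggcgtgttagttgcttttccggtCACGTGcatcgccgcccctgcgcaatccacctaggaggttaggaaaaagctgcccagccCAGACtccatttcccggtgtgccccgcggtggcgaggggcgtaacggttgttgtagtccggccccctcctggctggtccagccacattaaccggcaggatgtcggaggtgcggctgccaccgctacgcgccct
WDR45 start 2: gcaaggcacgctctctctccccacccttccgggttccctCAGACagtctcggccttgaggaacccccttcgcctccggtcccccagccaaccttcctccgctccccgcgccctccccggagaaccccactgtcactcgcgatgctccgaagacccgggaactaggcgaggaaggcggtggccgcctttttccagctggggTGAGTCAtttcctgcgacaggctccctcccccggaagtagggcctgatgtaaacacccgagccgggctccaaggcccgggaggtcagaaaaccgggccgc
Neither of the windows with a MITF peak at the family's own genes held the E-box or the M-box. An E-box stood in the PRAF2 window, 142 bases before its start. In the RefSeq set of 35116 such windows, 7.26% held the E-box and 2.92% the M-box. Of those that overlapped a MITF peak, 28.9% held the E-box with TGFB1 and 28.1% in vehicle, while the M-box stood in 3.88% with TGFB1 and 2.93% in vehicle, close to its share of all windows. AP-1 letters were found in 7.71% of all windows, against 14.9% and 24.9% of those overlapping a JUNB peak of the TGFB1 and of the vehicle library. The CRE was in 1.85% of windows, GTCTAGAC in 0.202% and CAGAC in 45.3%, so a CAGAC match carries little information.

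Across the 4 genes, MITF was called at the same 3 sites in both treatments, and Smad2/3 was called with TGFB1 alone. The AP-1 and ATF factors were called more often with TGFB1, as they were in the whole lists. Smad2/3 had 5 peaks with TGFB1, at least 1 in the window of each of the 4 genes, and none in vehicle. Of the 5, 2 lay in the body of a member, MITF and TFEC, and the others lay at neighbouring genes. By the same rule 47.9% of all protein-coding genes had a Smad2/3 peak with TGFB1 and 3.85% in vehicle. A TGFB1-only peak, one that overlapped no vehicle peak of the antibody, was found at 46.9% of all genes, a vehicle-only peak at 0.841% and a shared one at 3.13%. Of the whole Smad2/3 list with TGFB1, 5.65% of peaks were shared. MITF had 3 peaks in each library, in the windows of MITF, TFEB and TFE3, and each TGFB1 peak overlapped its vehicle counterpart. The peak of the TFE3 window lay at the start of its neighbour PRAF2. Of all genes, 38.4% had a MITF peak with TGFB1 and 39.9% in vehicle. A MITF peak of the TGFB1 list that was shared with vehicle occurred at 24.7% of genes, a TGFB1-only one at 21.1% and a vehicle-only one at 24%, and 54.4% of the whole TGFB1 list was shared.

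ATF3 had 30 peaks with TGFB1 and 8 in vehicle, and JUNB had 27 with TGFB1 and 17 in vehicle. The whole lists were also longer with TGFB1, at 62997 against 49563 peaks for ATF3 and 64407 against 38514 for JUNB. Held to equal list lengths, JUNB had 18 peaks with TGFB1 and ATF3 26. All 4 genes had both factors in both libraries, as did most genes, 92.1% with TGFB1 and 76.9% in vehicle for ATF3 and 91.1% with TGFB1 and 82.3% in vehicle for JUNB. TGFB1-only peaks numbered 26 for ATF3 and 13 for JUNB and lay at all 4 genes, where 88.9% and 85.4% of all genes had one. Vehicle-only peaks numbered 4 for ATF3, at 3 genes, and 3 for JUNB, at 2 genes, with backgrounds of 56.8% and 51.6%. Of the vehicle peaks here, 50% of ATF3 and 82.4% of JUNB overlapped a TGFB1 peak, against 28.9% and 70.8% of the whole lists. Peaks shared by both treatments lay at 3 of the 4 genes for ATF3 and at all 4 for JUNB, where 54.2% and 70.8% of all genes had one. The vehicle library of ATF3 was the shallower, with 28.1 M (mega) reads with TGFB1 and 6.37 M in vehicle as worked out from the peaks. The pileup and background of each TGFB1 peak were then both scaled by the ratio of the lists' lowest backgrounds, 0.221 for ATF3. So scaled, 20 of the 30 ATF3 peaks and 16 of the 26 TGFB1-only ones still reached the lowest -log10 p of the vehicle list. For JUNB, with 47.7 M reads with TGFB1 and 34.1 M in vehicle, the ratio was 0.720. There 26 of the 27 peaks and 12 of the 13 TGFB1-only ones still reached it. The bar in each case is the weakest peak of the vehicle list. How many peaks of the whole lists would reach it was not computed, so these counts do not set the 4 genes apart. Whether depth accounts for the TGFB1-only peaks was not tested.

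H3K27ac differed little in number, with 59 peaks with TGFB1 and 54 in vehicle. Of the TGFB1 peaks 45 (76.3%, 95% Wilson interval 64.0 to 85.3%) overlapped a vehicle peak, near the 78.2% of the whole list, and such shared acetylation lay at all 4 genes (90% of all genes). These intervals cover counting error over peaks only. All 4 genes were acetylated in both libraries, as were 91.4% of all genes with TGFB1 and 91.2% in vehicle. TGFB1-only acetylation, 14 peaks in all, lay at all 4 genes (55.4% of all genes), and vehicle-only acetylation, 10 peaks, at MITF and TFEC (52.7% of all genes). The implied depths were 23.2 M reads with TGFB1 and 21.5 M in vehicle for H3K27ac, 10.2 and 9.37 M for Smad2/3, and 7.40 and 7.39 M for MITF. The Smad2/3 depths rest on taking the shortest peak of each list, 183 bp with TGFB1 and 311 bp in vehicle, as the read extension. Without that step the lowest background was 0.690 reads with TGFB1 and 1.08 reads in vehicle, so which Smad2/3 library is the deeper was not settled.

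Close to the listed starts the picture was sparser. A summit within 1 kb of a start was found for MITF at 2 of the 4 genes in each library, against 11.7% of the 15812 genes with listed starts with TGFB1 and 12.9% in vehicle. For H3K27ac it was found at 4 with TGFB1 and 3 in vehicle (67.4% and 67.4% of genes), and for ATF3 at 2 with TGFB1 and none in vehicle (23.5% and 9.43%). JUNB had one at 1 gene, TFE3, in each library (32.5% with TGFB1 and 15.8% in vehicle), and Smad2/3 at none in either (12.6% with TGFB1 and 0.525% in vehicle).

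**Figure D1:**
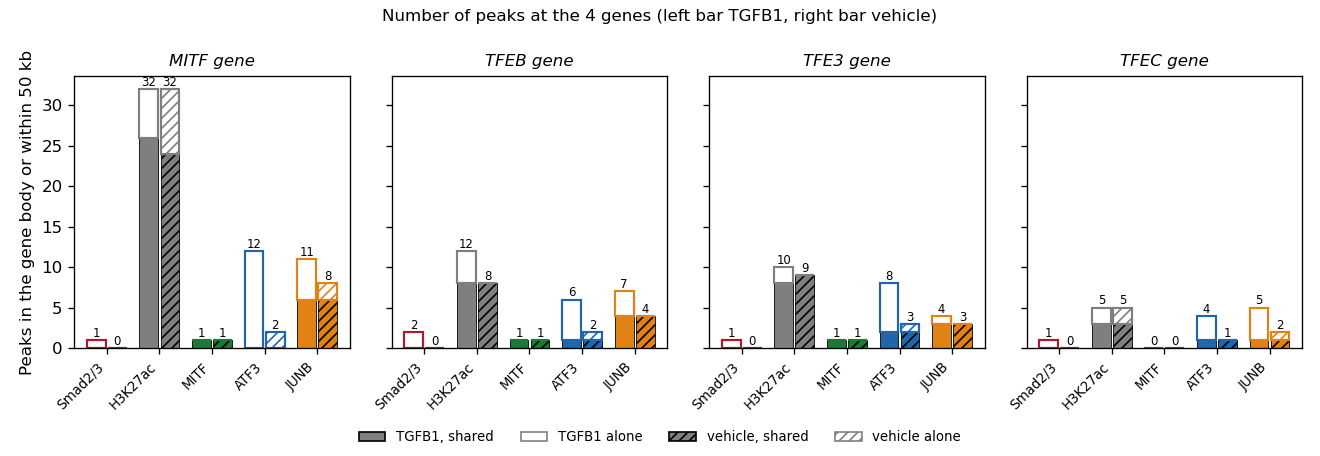
Number of peaks in the gene body or within 50 kb at each of the 4 genes, by antibody; the left bar is TGFB1, the right, hatched bar vehicle, the filled part overlaps a peak of the other treatment and the open part does not. MITF has the most acetylated peaks, 32 in each library, TFEC has no MITF peak, and no bar for Smad2/3 exists in vehicle.

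The MITF gene covers chromosome 3 from 69739464 to 69968332 and was the most heavily marked member by number, with 100 of the 206 peaks. Per 100 kb of its window it had 9.73 H3K27ac peaks in each library, more than 86.1% of genes with TGFB1 and 85.7% in vehicle. The median gene had 3.94 with TGFB1 and 3.91 in vehicle. Its first promoter held MITF protein in both treatments. With TGFB1 the peak (69739218 to 69739505) had a fold enrichment of 12.9 and a -log10 p of 31.3, rank 470 of 5037 peaks. In vehicle it (69739224 to 69739507) had a fold enrichment of 18.3 and a -log10 p of 42.5, rank 307 of 5695. The fold enrichment, here and below, is the authors' ratio of pileup to local background at the summit, and serves only to place a peak within its own list. The summits lay 107 bp (TGFB1) and 114 bp (vehicle) before the start. The recovered pileup was 32 reads (exact Poisson interval 21.9 to 45.2) with TGFB1 and 35 reads (24.4 to 48.7) in vehicle, so the heights could not be told apart by counting error.

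The same promoter was acetylated around the MITF peak rather than under its summit. An H3K27ac peak with its summit 77 bp past the start had a fold enrichment of 11.7 with TGFB1, and one 96 bp past it had 15.2 in vehicle. A weaker H3K27ac peak lay on the other side, with summits 345 bp before the start with TGFB1 (fold enrichment 3.18) and 357 bp in vehicle (4.51). ATF3 was called here with TGFB1 alone, 209 bp before the start, with a fold enrichment of 5.91. That peak held 17 reads. With pileup and background scaled to the shallower vehicle library it would have a -log10 p of 3.70, just past the lowest of 3.35 in the vehicle list.

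**Figure D2:**
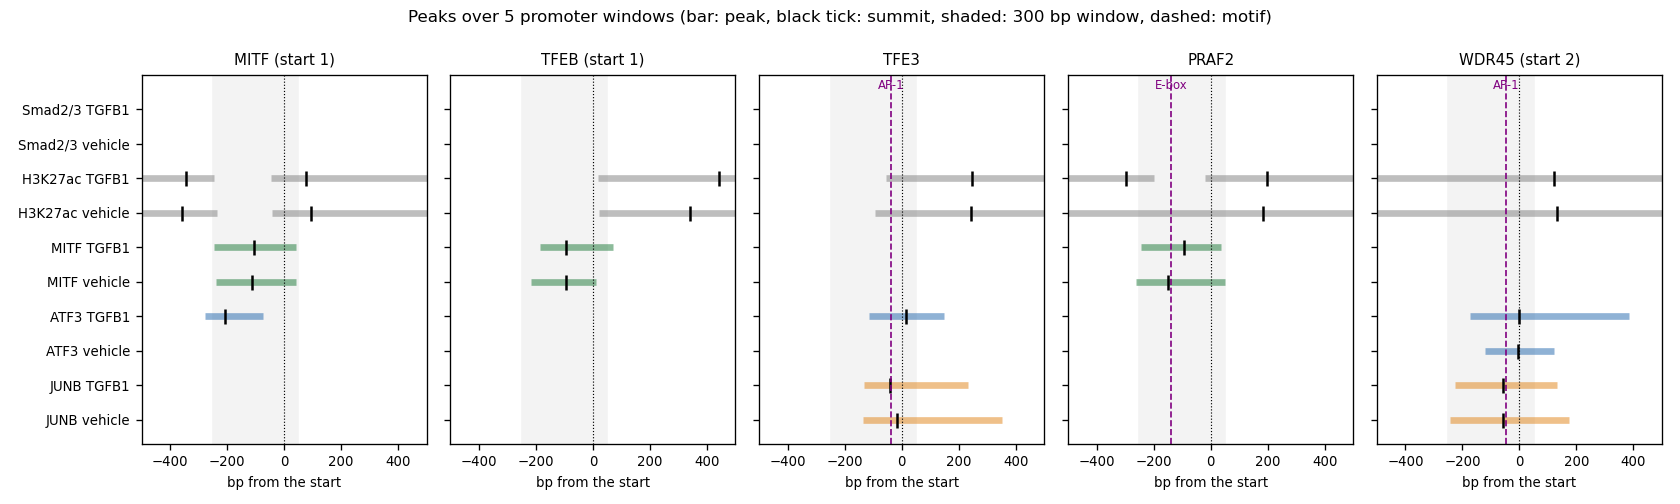
Peaks over 5 promoter windows, with the distance from the start on the x axis (bp, negative upstream) and the 10 libraries on the y axis, TGFB1 above vehicle; bars are peaks, black ticks summits, the shaded band the 300 bp window and dashed lines the E-box or AP-1 letters. At the first starts of MITF and TFEB the MITF summits lie between the start and 114 bp before it, and at TFE3 and WDR45 the JUNB summits lie within 18 bp of the AP-1 letters.

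The other promoters of MITF held no peak of any library within their windows. At the second start an H3K27ac peak was called with TGFB1 alone, 903 bp upstream (fold enrichment 4.59), and another in vehicle alone, 409 bp downstream (5.08). Both were in the weaker part of their lists, at ranks 65053 of 80990 and 57380 of 79172. At the third start, the melanocyte promoter with the CRE, the nearest acetylated peak had its summit 1315 bp downstream with TGFB1 (fold enrichment 7.48) and 1352 bp downstream in vehicle (9.18). This pair was chosen after its values were seen.

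Much of the JUNB and ATF3 binding at MITF lay around and past its second start. Between 20 and 55 kb from the 5′ end of the gene, a stretch set after the maps were seen, lay 6 of the 11 JUNB peaks with TGFB1 and 5 of the 8 in vehicle. The same stretch held 6 of the 12 ATF3 peaks with TGFB1 and neither of the 2 in vehicle, and 16 of the 32 H3K27ac peaks in each library. By -log10 p, the measure of strength used throughout, the strongest JUNB site with TGFB1 was at 45.8 kb (69784976 to 69785350), with a fold enrichment of 18.9 and rank 2724 of 64407. In vehicle the site (69785131 to 69785331) had a fold enrichment of 10.8 and rank 3541 of 38514, and both summits fell on the same base. The strongest in vehicle was at 30.9 kb (69770227 to 69770664), with fold enrichments of 11.3 with TGFB1 and 10.3 in vehicle. Each of these sites also held ATF3 with TGFB1. H3K27ac peaks of both libraries overlapped the first site, but its JUNB summits fell between them. At the other site the vehicle JUNB peak overlapped H3K27ac of both libraries, and the TGFB1 JUNB peak overlapped neither. A further JUNB site, at 82.0 kb, had a fold enrichment of 9.98 with TGFB1, and the next vehicle peak in strength, at 48.2 kb, had 6.72.

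The strongest ATF3 peak at MITF, called with TGFB1 alone, was at 34.8 kb (69774135 to 69774352) on acetylated chromatin, with a fold enrichment of 12.3 and rank 8239 of 62997. It was followed by the site at 30.9 kb (10.5) and by one at 141 kb (8.82) that overlapped no other library. Scaled to the vehicle library, these 3, and 6 of all 12 ATF3 peaks at MITF, still reached the lowest -log10 p of the vehicle list. The share of the whole ATF3 list that would do so was not computed. The ATF3 peaks of the vehicle library, 47.3 kb upstream (5.45) and at 202 kb (5.18), were not shared.

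The single Smad2/3 peak at MITF, called with TGFB1 alone, lay in the same stretch, 36.5 kb into the gene (69775890 to 69776147). It had a fold enrichment of 11.0, a -log10 p of 20.5, rank 1969 of 11406 and 19 reads at the summit (11.4 to 29.7). It overlapped a JUNB peak that was called in vehicle alone (69775888 to 69776061, fold enrichment 6.59, chosen here after its values were seen), while no JUNB peak of the TGFB1 library overlapped it. H3K27ac of the vehicle library overlapped it by its edge. With TGFB1 the next acetylated peak began at 69776201, and it had a fold enrichment of 16.7. In vehicle the strongest acetylated peak of this stretch lay at 35.3 kb (69774153 to 69775800, 15.7).

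Beyond the 3′ end, the strongest vehicle H3K27ac peak of the MITF window lay over the end of SAMMSON nearest to MITF, a long non-coding RNA gene of the melanocyte lineage. The peak there had a fold enrichment of 9.44 with TGFB1 (69999622 to 70000375) and 15.9 in vehicle (69998777 to 70000367). JUNB peaks of both libraries and an ATF3 peak of the TGFB1 library overlapped the wider vehicle peak. With TGFB1 the same JUNB and ATF3 peaks overlapped a separate acetylated peak beside it (69998739 to 69999431, fold enrichment 7.32, chosen after its values were seen). Acetylated peaks covered 19.0 kb of the MITF window with TGFB1 and 20.3 kb in vehicle, with median fold enrichments of 5.35 and 6.78. The whole lists had medians of 6.28 and 6.22 (TGFB1, then vehicle). Both the covered length and these medians move with how peaks were called in each library.

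**Figure D3:**
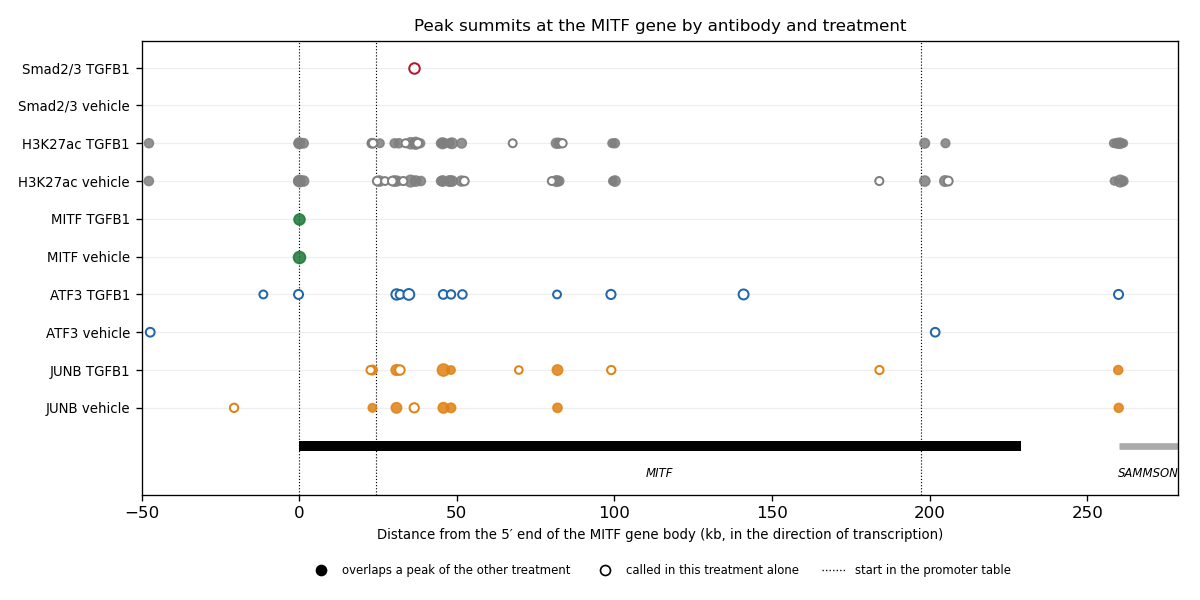
Summits at the MITF gene (black bar) by library, against the distance from its 5′ end (kb); filled circles overlap a peak of the other treatment, open circles do not, circle area grows with fold enrichment, and dotted lines are the 3 starts. MITF protein sits on the first start in both libraries, the Smad2/3 peak at 36.5 kb, and JUNB and ATF3 circles crowd between 20 and 55 kb.

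TFEB, on chromosome 6 from 41683978 to 41736223, had 43 peaks in its window, and 4 other coding genes (MDFI, PGC, FRS3 and PRICKLE4) share that window. MITF protein lay at its first start in both libraries, as at MITF itself. The peak (41735538 to 41735793) had a fold enrichment of 13.1 and rank 636 with TGFB1, and (41735597 to 41735827) 7.02 and rank 2062 in vehicle. The summits lay 93 and 95 bp before the start, and the pileups were 23 reads (14.6 to 34.5) with TGFB1 and 17 reads (9.90 to 27.2) in vehicle, intervals that overlap. An H3K27ac peak covered the other starts, with a fold enrichment of 12.6 with TGFB1 and 13.7 in vehicle. It touched the MITF peak with TGFB1 and stopped short of it in vehicle.

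JUNB and ATF3 met in the body of TFEB. At 12.6 kb from the 5′ end JUNB had fold enrichments of 11.0 with TGFB1 and 8.13 in vehicle, and ATF3 had 16.6 with TGFB1 alone (41723462 to 41723804, rank 6405 of 62997). Farther in, JUNB had 9.12 with TGFB1 at 22.9 kb and 4.90 in vehicle at an overlapping site. A pair of acetylated peaks that overlap the TGFB1 site, which stand among the 4 TGFB1-only H3K27ac peaks of the window, had fold enrichments of 4.01 and 5.46. No H3K27ac peak of the TFEB window was called in vehicle alone. A weaker ATF3 peak with TGFB1 (7.32) lay 1328 bp past the nearest start. ATF3 was also called 31.1 kb upstream in both libraries, with fold enrichments of 20.8 with TGFB1 (rank 4226 of 62997) and 10.4 in vehicle (rank 4310 of 49563), and in vehicle alone at 29.3 kb (8.14).

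Both Smad2/3 peaks of the TFEB window lay at neighbouring genes, and none lay in TFEB. The stronger was in MDFI, 36.7 kb past the 3′ end of TFEB (41647177 to 41647457), with a fold enrichment of 9.76 with TGFB1, rank 2358 and 19 reads (11.4 to 29.7). It overlapped JUNB of both libraries and an H3K27ac peak called with TGFB1 alone (fold enrichment 5.52). The weaker, between FRS3 and PRICKLE4 (3.18, rank 11290 of 11406, 10 reads), was close to the lowest value of its list. It overlapped the strongest H3K27ac peak of the window, which had 28.0 with TGFB1 and 17.5 in vehicle. At the MDFI end, JUNB had fold enrichments of 11.3 with TGFB1 and 9.54 in vehicle, and H3K27ac inside MDFI had 9.35 with TGFB1 and 8.16 in vehicle.

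TFE3, on chromosome X from 49028726 to 49043357, is the shortest member at 14.6 kb, and it had the strongest acetylated and JUNB-bound promoter of the family. Its H3K27ac peak with TGFB1 (49039069 to 49043413) spanned 4345 bp and 3 vehicle peaks, with a fold enrichment of 40.6 and rank 453 of 80990. The vehicle peak there (49041545 to 49043452) spanned 1908 bp with a fold enrichment of 40.1 and rank 1638 of 79172. A second, weaker peak lay 730 bp upstream with TGFB1 (8.52) and 701 bp upstream in vehicle (9.03). JUNB was bound at the start in both libraries, with a fold enrichment of 15.0 and rank 7352 of 64407 with TGFB1, and 14.8 and rank 2455 of 38514 in vehicle. The pileups were 52 reads (38.8 to 68.2) with TGFB1 and 45 reads (32.8 to 60.2) in vehicle, intervals that overlap. Scaled by 0.720 to the shallower vehicle library, the TGFB1 pileup was 37.4 reads, below that of vehicle.

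The AP-1 letters TGACTCA shown above begin 42 bases before the TFE3 start. The JUNB summit lay inside them with TGFB1 and 18 bp away in vehicle. A match under a summit is a description and no proof of a site. ATF3 joined with TGFB1 alone (49043208 to 49043472), with a fold enrichment of 10.0, its summit 15 bp past the start and 51 bp from the AP-1 letters. Scaled to the vehicle library, this ATF3 peak would have a -log10 p of 6.37, above the lowest of 3.35 in that list.

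Per 100 kb of its window TFE3 had 6.98 ATF3 peaks with TGFB1 and 2.62 in vehicle, more than 94.3% and 83.6% of genes (TGFB1, then vehicle), where the median gene had 2.50 and 0.959. These densities rest on 8 peaks with TGFB1 and 3 in vehicle, in a window that holds 4 other coding genes. Only 4 of the 8 and 1 of the 3 lay in the body of TFE3. Inside the gene ATF3 had further peaks with TGFB1, of which the strongest was at 5.29 kb (fold enrichment 11.9). JUNB was called at 1.43 kb with TGFB1 alone (5.64) and at 3.40 kb in vehicle (6.01), where a weaker TGFB1 peak overlapped it. The vehicle ATF3 list held a weak peak 1.09 kb past the start (4.76, 6 reads) and one 48.2 kb upstream in WDR45 (5.92).

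The strongest sites in the TFE3 window belonged to other genes. At the second start of WDR45, an autophagy gene, JUNB had fold enrichments of 34.4 with TGFB1 (rank 460 of 64407) and 21.9 in vehicle (rank 553 of 38514). Both summits lay on the same base, 7 bp from the AP-1 letters TGAGTCA of that promoter. ATF3 was bound there in both libraries, with 19.7 with TGFB1 and 6.66 in vehicle, and H3K27ac had 27.5 with TGFB1 and 43.2 in vehicle. MITF protein was called at the start of PRAF2, 30.7 kb upstream of TFE3 with TGFB1 (49073966 to 49074245, fold enrichment 11.3, rank 919 of 5037) and 30.8 kb in vehicle (49073951 to 49074264, 4.29, rank 5158 of 5695). The vehicle summit was 6 bp and the TGFB1 summit 44 bp from the E-box in that window, and the pileups were 19 reads (11.4 to 29.7) with TGFB1 and 10 reads (4.80 to 18.4) in vehicle, intervals that overlap. The vehicle peak was weak within its list, with a -log10 q of 2.72. H3K27ac covered this promoter in both libraries, with 21.8 with TGFB1 and 17.1 in vehicle.

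The Smad2/3 peak of the TFE3 window lay in CCDC120, 14.2 kb upstream of TFE3 (49057512 to 49057730). It was called with TGFB1 alone with a fold enrichment of 4.83, rank 9397 of 11406 and 10 reads (4.80 to 18.4). It overlapped an H3K27ac peak of both libraries, with 11.0 with TGFB1 and 6.90 in vehicle. The TGFB1-only H3K27ac peaks of the window, 2 in number (fold enrichments 5.26 and 4.02), flanked that site at 13.8 and 15.5 kb upstream of TFE3, and no peak was called in vehicle alone. H3K27ac at the start of CCDC120 had 24.5 with TGFB1 and 13.9 in vehicle.

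TFEC, on chromosome 7 from 115935152 to 116159896, was the least marked member for its size, with 23 peaks over 325 kb and no MITF peak in either library. Per 100 kb it had 1.54 H3K27ac peaks in each library, more than 21.9% of genes with TGFB1 and 22.6% in vehicle. Only a faint H3K27ac peak, called with TGFB1 alone (fold enrichment 3.24, rank 79104 of 80990, 7 reads), lay at one of its listed starts. Its strongest acetylation stood about 20.9 kb from the 5′ end. There an H3K27ac peak (116138771 to 116139444) had a fold enrichment of 15.0 and rank 21134 of 80990 with TGFB1, and (116138809 to 116139250) 4.30 and rank 37064 of 79172 in vehicle. The pileups were 42 reads (30.3 to 56.8) with TGFB1 and 39 reads (27.7 to 53.3) in vehicle, which overlap, over local backgrounds of 1.87 reads with TGFB1 and 8.30 reads in vehicle.

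A Smad2/3 peak called with TGFB1 alone (116139093 to 116139302) overlapped that acetylated peak, with a fold enrichment of 5.92, rank 7756 and 9 reads (4.12 to 17.1). ATF3 was bound nearby in both libraries (7.36 with TGFB1 and 5.92 in vehicle) under a second acetylated peak (6.97 with TGFB1 and 5.68 in vehicle). A further acetylated peak lay 6.49 kb from the 5′ end with TGFB1 (8.94) and 6.36 kb in vehicle (6.23). The strongest JUNB site was at 62.3 kb (116097428 to 116097715), with 14.9 with TGFB1 and 8.57 in vehicle, and ATF3 was called there with TGFB1 alone (9.67). Other JUNB peaks were called with TGFB1 alone at 218 kb (6.08) and 17.3 kb upstream (3.51), and in vehicle alone 22.4 kb upstream (4.10). A further ATF3 peak with TGFB1 alone (6.22) was at 65.5 kb.

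**Figure D4:**
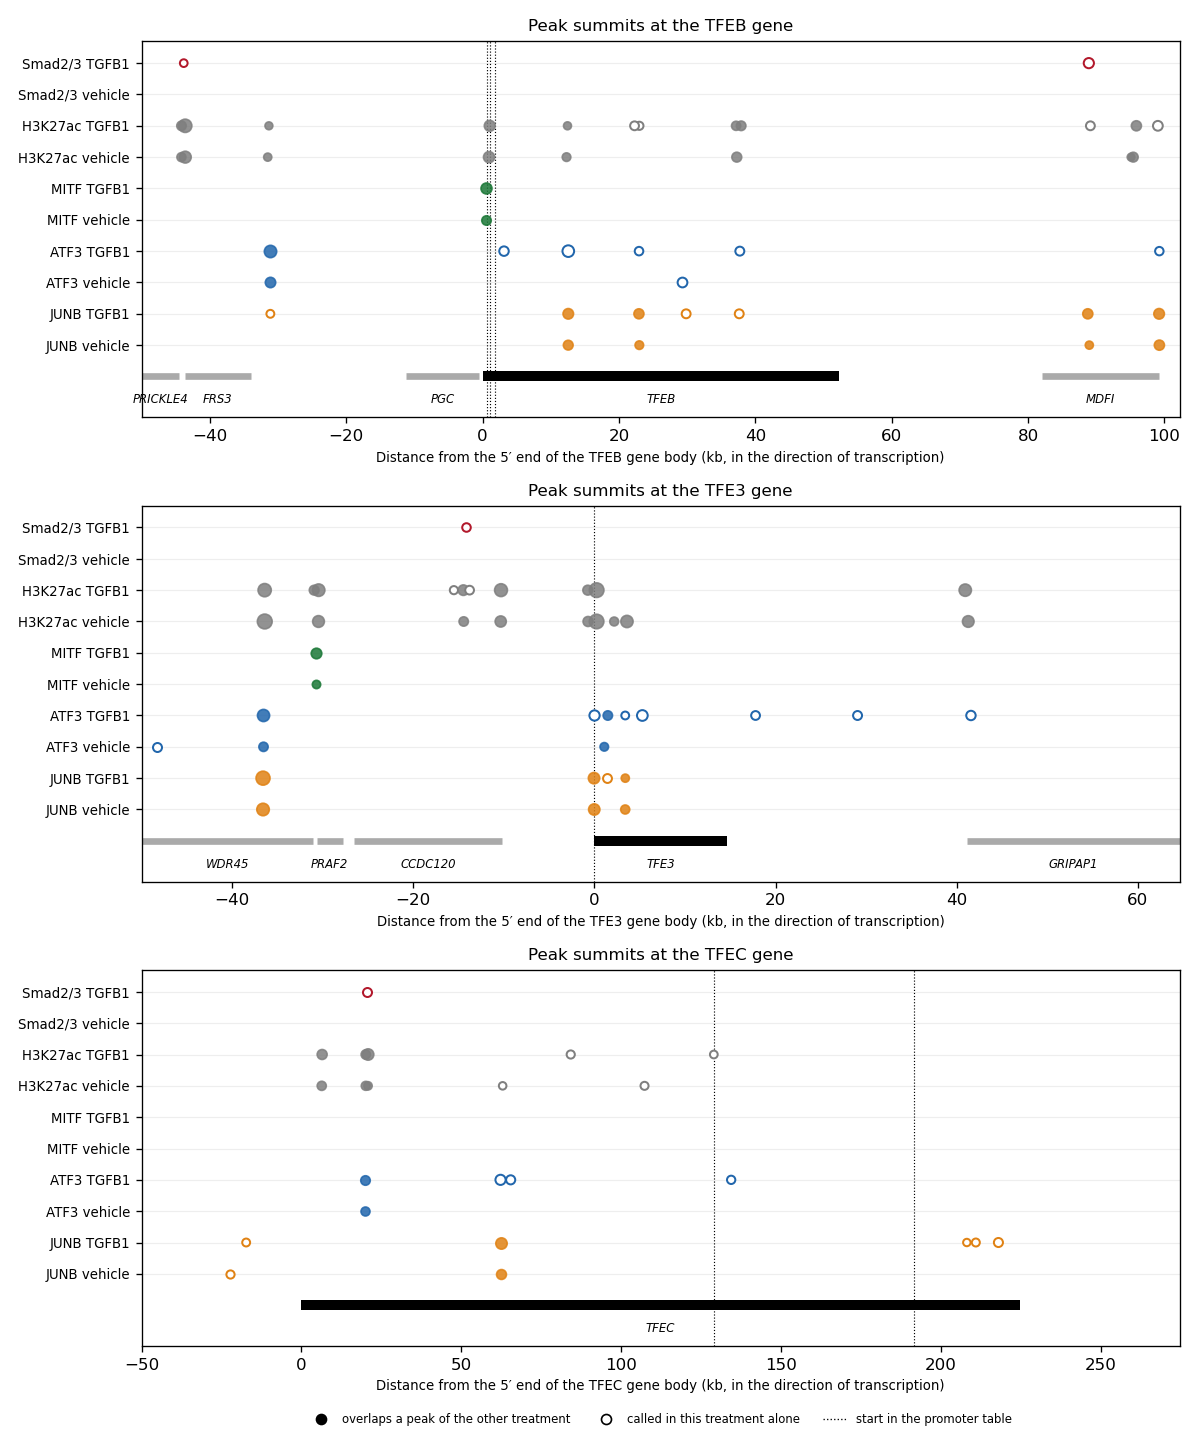
Summits at TFEB, TFE3 and TFEC by library, against the distance from the 5′ end of each gene body (kb); black bars are the member, grey bars other genes, filled circles overlap a peak of the other treatment, open circles do not, circle area grows with fold enrichment, and dotted lines are listed starts. The Smad2/3 circles, all open, lie at neighbouring genes in the TFEB and TFE3 windows and inside the gene at TFEC.

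Overlaps between antibodies are given beside the shares of the whole lists, and for Smad2/3 they rest on too few peaks to describe the family. Of the 5 peaks 4 overlapped H3K27ac with TGFB1 (75.7% of the whole Smad2/3 list did), 1 overlapped JUNB (62.0%, Wilson interval here 3.62 to 62.4%), and none overlapped ATF3 (45.9%, here up to 43.4%) or MITF (11.9%). Of the 30 ATF3 peaks with TGFB1, 17 (56.7%, 39.2 to 72.6%) overlapped JUNB of the same treatment, above the 38.5% of the whole list. H3K27ac overlapped 18 of them (60.0%, 42.3 to 75.4%), against 26.7% of the list. Of the 27 JUNB peaks with TGFB1, 17 (63.0%, 44.2 to 78.5%) overlapped ATF3 and 15 (55.6%, 37.3 to 72.4%) H3K27ac, against 37.5% and 36.2% of the list. In vehicle 1 of the 17 JUNB peaks overlapped ATF3 (5.88%) and 7 overlapped H3K27ac (41.2%), against 13.7% and 33.5%. The peaks of one gene share their chromatin and are not independent, so these intervals are too narrow. Unlike the peaks here, the whole lists are not limited to peaks in or within 50 kb of a coding gene, so the sets are not alike. None of the 3 MITF peaks of either library overlapped Smad2/3 or JUNB of the same treatment (Wilson interval up to 56.1% in each case). Of the whole MITF list with TGFB1, 26.4% overlapped Smad2/3 and 50.4% JUNB, and in vehicle 8.31% and 26.9%. With 3 peaks the family cannot be told apart from the list.

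**Figure D5:**
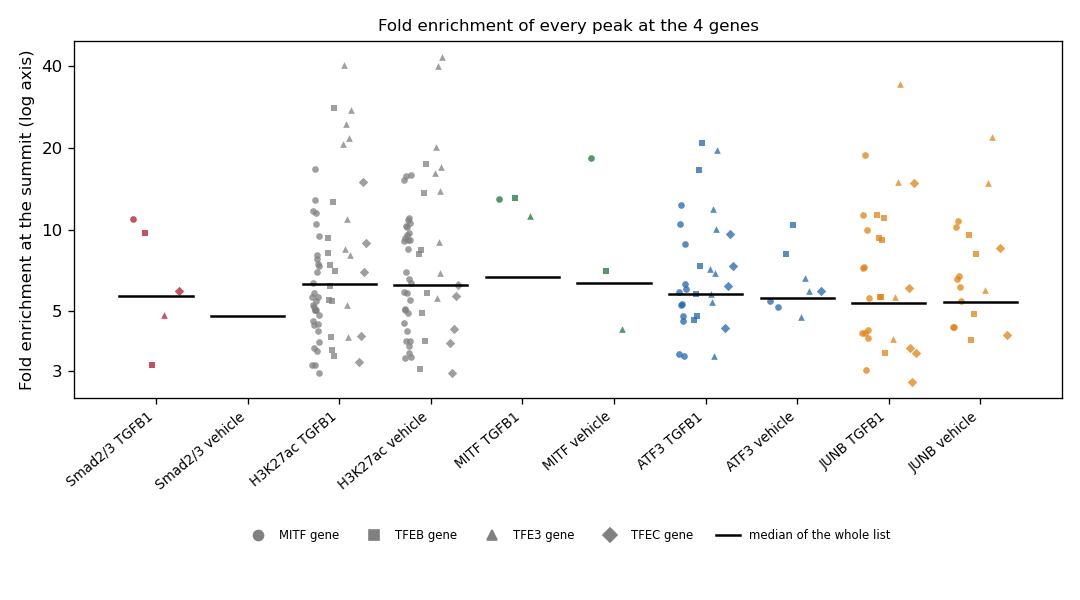
Fold enrichment at the summit (log axis) of every peak at the 4 genes by library, with marker shape for the gene and a bar for the median of the whole list. All 3 MITF peaks with TGFB1 lie above their list's median of 6.68, while in vehicle the TFE3 one, at 4.29, lies below 6.38; the highest JUNB and H3K27ac points are in the TFE3 window.

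Genes that act with the family are given by counts beside the shares of all genes, with no test. Of 17 nutrient-sensing regulators, which act on mTORC1 or at the lysosome, 12 had a MITF peak with TGFB1 and 14 in vehicle, where 38.4% and 39.9% of all genes had one. Smad2/3 lay at 8 of the 17 with TGFB1 (47.9% of all genes) and at none in vehicle (3.85%). JUNB lay at all 17 with TGFB1 (91.1%) and at 12 in vehicle (82.3%), ATF3 at 15 in each library (92.1% with TGFB1 and 76.9% in vehicle), and H3K27ac at all 17 in each (91.4% with TGFB1 and 91.2% in vehicle). The rule for named genes gave FLCN (folliculin) and RRAGA, RRAGD and LAMTOR1 (parts of the Rag and Ragulator complexes), each with TGFB1-only peaks of 4 antibodies. They were tied with LAMTOR2, LAMTOR5, RPTOR, TSC1 and TSC2. The share of all genes with TGFB1-only peaks of 4 antibodies was not computed. Taken singly, such peaks were common, at 88.9% of all genes for ATF3, 85.4% for JUNB and 55.4% for H3K27ac. For Smad2/3 the share was 46.9% and for MITF 21.1%. FLCN had 2 MITF peaks with TGFB1 and 3 in vehicle, RRAGD had 2 with TGFB1 and 1 in vehicle, LAMTOR1 had 3 with TGFB1 and 1 in vehicle, and RRAGA had none.

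Of 13 other bHLH leucine zipper factors, 8 had a MITF peak in each library (38.4% of all genes with TGFB1 and 39.9% in vehicle), and 7 had Smad2/3 with TGFB1 (47.9%) and none in vehicle (3.85%). All 13 had H3K27ac (91.4% with TGFB1 and 91.2% in vehicle), ATF3 (92.1% and 76.9%) and JUNB (91.1% and 82.3%) in both libraries. MNT, a MAX partner that represses transcription, had TGFB1-only peaks of all 5 antibodies, among them 10 of ATF3 and 2 of Smad2/3. USF1, USF2 and MAX had them of 4, as did MLXIP, MLXIPL and SREBF1, and the share of all genes with so many was not computed.

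Of 8 transcription factors known to act on the MITF gene, none had a MITF peak with TGFB1 (38.4% of all genes) and 1, ZEB2, had one in vehicle (39.9%). Smad2/3 lay at 6 of the 8 with TGFB1 (47.9%) and at none in vehicle (3.85%). H3K27ac lay at 7 in each library (91.4% with TGFB1 and 91.2% in vehicle), and ATF3 and JUNB at all 8 with TGFB1 (92.1% and 91.1%) and at 7 in vehicle (76.9% and 82.3%). SOX10, which activates MITF in the neural crest lineage, had 6 TGFB1-only Smad2/3 peaks, LEF1 and TFAP2A had 2 each, and ZEB2, PAX3 and POU3F2 had 1 each. At least 1 such peak was found at 46.9% of all genes. These 6 genes are named for having a Smad2/3 peak and not by the rule for named genes.

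As a check of the cell line, H3K27ac within 10 kb was found with TGFB1 at 6 of 7 pigment cell markers and in vehicle at 5, with DCT at none in either and MLANA at none in vehicle. It was also found at 4 of 5 epithelial markers in each library, at 4 (TGFB1) and 5 (vehicle) of 5 leukocyte markers, and at all 3 endothelial and all 3 neuronal markers in each. Since 80.9% of all genes with TGFB1 and 80.7% in vehicle had such a peak, this measure does not tell cell types apart.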

How the data were processed

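Peaks came from 10 lists, 1 for each antibody and treatment, and 6 inputs were not analysed here. Per the submitters' processing notes, reads were aligned with Bowtie to GRCh38 and peaks called with MACS2 (version 2.0 stated). Lists were made per library, per the peak names in the deposited files; the control used, the handling of duplicates and the threshold are not given in the sources used here. The fold enrichment of each peak is the deposited ratio of pileup to local background, and its deposited -log10 p and -log10 q were also taken, and the deposited score (10 times the -log10 q) was not used. The lowest -log10 q of each list was near that of a q of 0.05. The labels put Smad2/3 with H3K27ac, MITF alone, and ATF3 with JUNB on 3 dates, so antibody and date cannot be told apart between these sets, while each TGFB1 and vehicle pair shares its date. Technical triplicates are mentioned in the design text; the labels give a single library per condition and antibody.

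The 4 members, the gene lists and the measures were chosen with earlier results of these data known. The gene set was RefSeq's GRCh38.p14 protein-coding genes on the autosomes and X (19974). Sharing 1 bp counted as overlap. Peaks described in full were, by gene, antibody and list, the 3 of highest -log10 p and any within 1 kb of a listed start or gene end (86 in all). The pileup and background of a peak were solved from fold enrichment and -log10 p with 1 pseudocount in each, and a whole pileup fitted within 0.01 of the -log10 p for all 206 peaks. Implied depth assumes a genome of 2.7 Gb and the shortest peak as read extension. Poisson and Wilson intervals (95%) cover counting error only, and no p-value was computed, since no group has replicates. Protein sequences were not used here. Calculations used Python 3.11.15, pandas 2.3.3, numpy 2.4.6, scipy 1.17.1 and matplotlib 3.10.9. On simulated data 810 planted overlaps and 1322 pileups were all recovered, with no false overlap. The simulated peaks were made by the same rules and formula, and pileups of very high -log10 p were left out. The check therefore covers the code and not how well the formula describes the deposited lists.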

Additional observations from a re-analysis of the deposited data

How the results depend on the processing

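No paired analysis was possible because each antibody and treatment has 1 library. Peak numbers at the 4 genes that moved by more than 1.5 times were as follows. With summits in the gene body only they were 2 (Smad2/3 TGFB1), 38 (H3K27ac TGFB1), 1 (MITF TGFB1), 1 (MITF vehicle), 4 (ATF3 vehicle) and 10 (JUNB vehicle). Within 10 kb they were 2 (Smad2/3 TGFB1), 4 (ATF3 vehicle) and 11 (JUNB vehicle). At a -log10 q of at least 5 they were 3 (Smad2/3 TGFB1) and 5 (ATF3 vehicle). With the Smad2/3 TGFB1 list held to its strongest peaks, as many as the vehicle list has, 0 of its 5 peaks remained, so none of them is among the strongest of that list. These settings leave fewer bases or fewer peaks by construction. The other 4 numbers at equal list lengths stayed within 1.5 times, but 2 of them reached that limit. JUNB TGFB1 fell to 18 peaks, against 17 in vehicle, and MITF vehicle to 2. ATF3 TGFB1 kept 26, against 8 in vehicle, and H3K27ac TGFB1 kept 58. With pileup and background scaled to the partner list, an alternative chosen after seeing the data, all 5 stayed within 1.5 times. ATF3 TGFB1 reached that limit at 20. For Smad2/3 the list scaled was vehicle, which had 0 peaks here, so its number could not move. The Smad2/3 peaks with TGFB1 were not scaled. With a reciprocal overlap of 50% the share of TGFB1 peaks overlapping vehicle was 61.0% for H3K27ac and 3.33% for ATF3, against 76.3% and 13.3% (5.31 to 29.7%) with any overlap, and the other 3 shares stayed inside theirs. All 5 stayed inside with a margin of 500 bp.

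Within 10 kb the percentages of all genes with a peak were 28.2% (TGFB1) and 1.77% (vehicle) for Smad2/3, 80.9% and 80.7% for H3K27ac, 21.7% and 23.3% for MITF, 70.2% and 48.8% for ATF3, and 72.5% and 55.9% for JUNB. MITF, Smad2/3 and vehicle ATF3 lists are the shallowest, so a peak of few reads missing there cannot be told from an absent one.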
